A study of Mus musculus with 6 samples.

Results

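RNAseq was performed on hearts of female mice that lack the NBCe1-B and NBCe1-C variants of the electrogenic sodium bicarbonate cotransporter (KOb/c, 3 mice) and of female wild-type mice (WT, 3 mice), all between 4 and 5 weeks of age. From these libraries, the nuclear genes that encode respiratory complexes II to V and cytochrome c were examined. They were taken by symbol, as the 4 complex II genes Sdha to Sdhd, Cyc1, Cycs and every protein-coding gene whose symbol starts with Uqcr, Cox4, Cox5, Cox6, Cox7, Cox8 or Atp5. This gave 47 genes of the 16018 in the deposited table, with 4 in complex II, 9 in complex III, 16 in complex IV, 17 in complex V and 1 for cytochrome c. The annotation holds 50 genes under these symbols, and Cox7b2, Cox8c and a second entry for Atp5o are not listed in the table. Both genotypes came from crosses of heterozygous parents on a C57BL/6J background. The deletion is not restricted to the heart. The labels give each library its own replicate number and code, and each was taken as a separate mouse. The p-values thus rest on 3 libraries per genotype.

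The respiratory chain of the inner mitochondrial membrane moves electrons from NADH and succinate to oxygen and pumps protons as it does so. Complex II oxidizes succinate and is also an enzyme of the citric acid cycle, complex III passes electrons from ubiquinol to cytochrome c, and complex IV reduces oxygen to water. Complex V, the ATP synthase, lets the protons flow back through a rotating ring of c subunits and makes ATP in its F1 head. The heart lives almost wholly on this pathway, and its muscle cells are packed with mitochondria. Except for complex II, each complex combines subunits encoded in mitochondrial DNA with subunits encoded in the nucleus, and it is the nuclear ones that are described here.

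The libraries held 41364857 to 49100802 reads on genes, and the lowest count of any of the 47 genes in any library was 38 reads, for Cox6b2. Slc4a4, the gene of the deleted variants, stood at 264, 945 and 269 normalized counts (reads divided by the size factor of the library) in the KOb/c libraries (always given in the order of replicates 1, 2 and 3) and at 675, 822 and 789 in the WT libraries. Replicate 2, labelled KOb/c, was thus above all WT libraries for the deleted gene (log2 fold change -0.90 ± 0.42, SE, limma adjusted p = 0.239), and counts per gene do not tell the variants apart. For the 47 genes and their groups, values without this library are given where leaving it out changed a sign or moved a value by more than 1.5 times. The heart label was matched by the cardiomyocyte genes: Myh6 was between 742963 and 1259230.0 and Tnnt2 between 316154 and 368185 normalized counts in the 6 libraries.

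Most of the 47 genes were lower in KOb/c than in WT hearts, by small amounts. On the scale of log2(normalized count + 1), 45 of 47 (95.7%) had a mean below that of WT, and the median difference was -0.18, beside -0.0043 over the 16016 genes tested, of which 50.8% were lower. Only Sdha and Atp5a1 were higher. In 29 of the 47 genes, all 3 KOb/c libraries lay below all 3 WT libraries, which was so for 14.6% of all genes, and in none of them did all KOb/c libraries lie above, which was so for 15.6% of all genes. No gene passed an adjusted p of 0.05 in limma, neither among the 47 nor among all genes tested (0%), and the lowest adjusted p among the 47 was 0.0815. At an unadjusted p under 0.05 in limma, 26 of the 47 were lower, beside 10.5% of all genes, and 0 were higher, beside 13% of all genes. In edgeR's quasi-likelihood fit of the recovered reads, 0 of the 47 and 0 of all genes passed the adjusted threshold. The lowest adjusted p among the 47 in edgeR was 0.0805. DESeq2 on the same reads called 21 of the 47 lower at an adjusted p of 0.05, beside 5.03% of the genes it tested, and 0 higher, beside 8.22%. Without KOb/c replicate 2, 42 of 47 were lower with a median of -0.16, and Sdhc (0.068), Uqcrc1 (0.022) and Atp5b (0.026) turned from lower to higher. Without it, complex II had a median of -0.0098, the members of 1000 nt or more -0.063, the core and catalytic subunits of complex III -0.031 and the F1 head and central stalk of complex V -0.0019. Cox5a was then at -0.10, Uqcrc2 at -0.038, Uqcrfs1 at -0.024 and Atp5d at -0.0019. The groups did not overlap in 29, beside 19.4% of all genes, and 20 were lower at an unadjusted p under 0.05 in limma, beside 8.92%. In tissue RNA, fewer cells that express these genes and less of their RNA per cell cannot be told apart. Genes of this kind often have processed pseudogenes, and how reads shared with such copies were counted is not given in the sources used here, so that the level of a gene with a near-identical copy is uncertain.

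**Figure D1:**
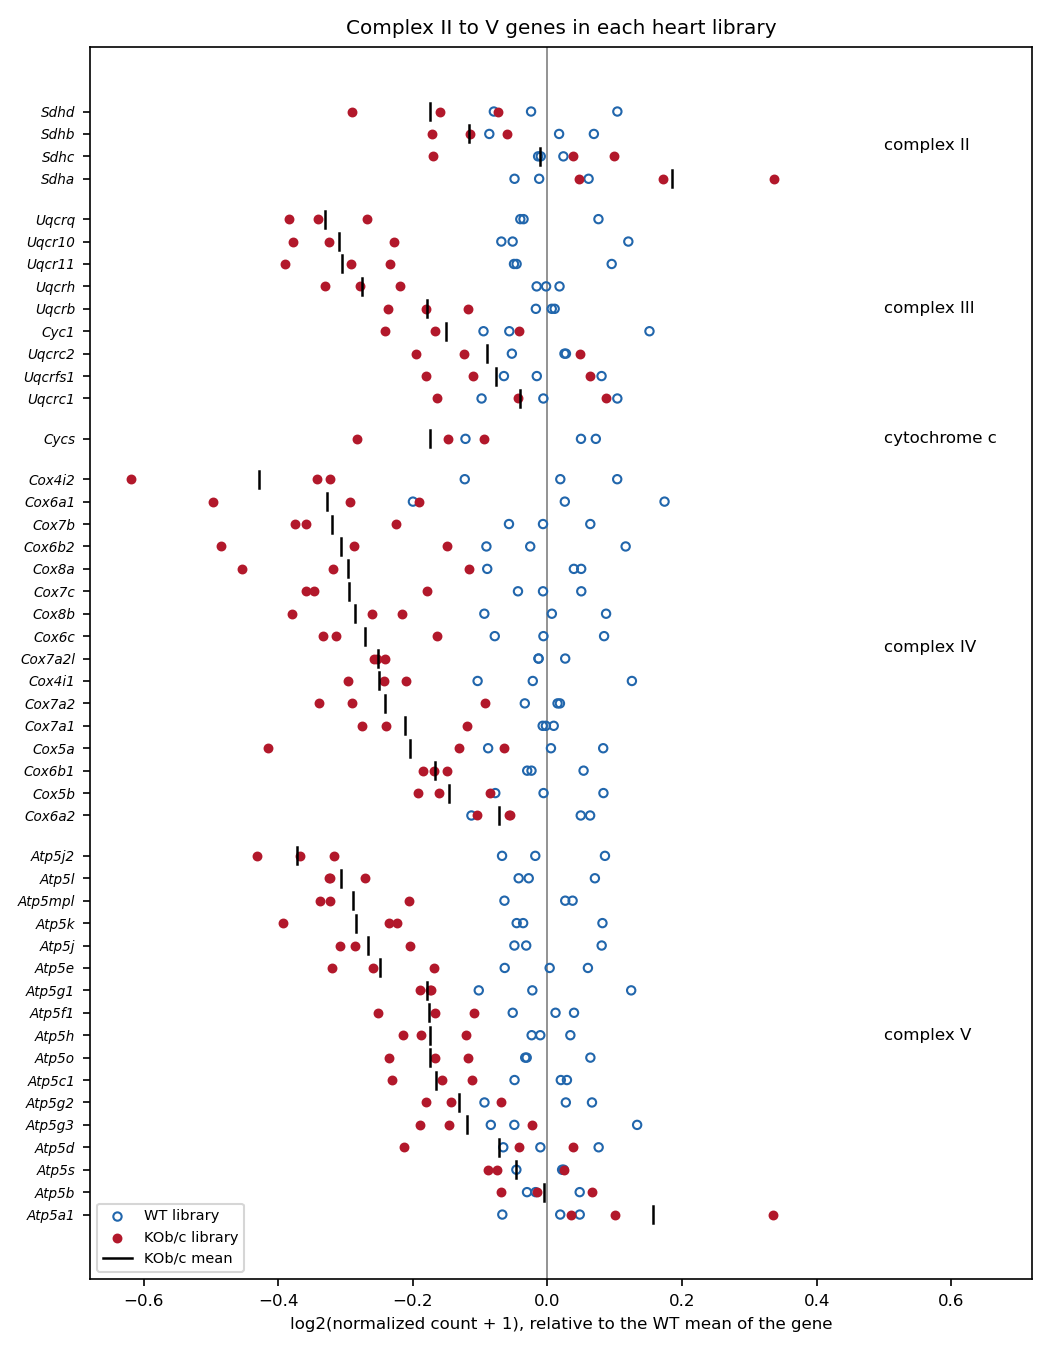
Each point is 1 heart library, placed by its log2(normalized count + 1) relative to the WT mean of that gene (x axis), for the 47 genes grouped by complex (y axis). Filled points are KOb/c, open points are WT and the bar is the KOb/c mean. The bars lie left of 0 for 45 genes, and complex IV and the small subunits of complexes III and V lie farthest left.

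The differences followed the length of the transcripts, in these genes as in other genes. The 47 genes are short, with a median length of 714 nt for the principal transcript, beside 2862 nt over all genes that have one. Among the 31 with a principal transcript under 1000 nt, all 31 were lower, with a median of -0.27. Among the 16 of 1000 nt or more, 14 were lower, with a median of -0.10. Other genes up to 2000 nt also had medians below 0. Under 500 nt, 93 other genes had a median of -0.28 and the 10 members -0.29. From 500 to 750 nt, the medians were -0.30 over 293 other genes and -0.25 over 16 members. From 750 to 1000 nt, they were -0.22 and -0.17, from 1000 to 1500 nt -0.16 and -0.17, and from 1500 to 2000 nt -0.10 and -0.090, with 5 to 7 members in each. Of 2000 to 3000 nt there were 2 members, with a median of 0.17 beside -0.023 over the other genes, and of 3000 to 5000 nt there were 2, at -0.093 beside 0.070. In both of these classes the median of the members had the opposite sign to that of the other genes. Above 5000 nt, where none of the 47 lies, the median of all other genes was 0.20. Genes are not independent of one another, and as a description the rank correlation of length with log2 fold change across them was 0.52 over 13997 genes and 0.64 over the 47.

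This length dependence ran with genotype. The mean annotated length of the longest transcript per gene, weighted by reads, was 3758, 3733 and 3660 nt in KOb/c replicates 1, 2 and 3. It was 3417, 3511 and 3468 nt in the WT replicates, so that the groups did not overlap. Each library was then corrected for the trend of its values with principal transcript length and GC content, over the 13997 genes with a principal transcript. The median over the 47 genes became 0.014, beside 0.013 over these 13997 genes, with 19 of the 47 lower and 28 higher. After this correction, all KOb/c libraries lay below all WT libraries for 4 of the 47, beside 9.33% of the 13997 genes. Limma gave an unadjusted p under 0.05 to 1 lower gene (Atp5j2), beside 6.03% of them, and to 1 higher gene (Atp5g2), beside 8.19%. Where the longest transcript of each gene was used for the correction instead, the median was -0.057 with 31 of 47 lower. The groups then did not overlap in 12, beside 10% of the 15978 genes with a length, and 5 were lower at an unadjusted p under 0.05 in limma, beside 6.69%. DESeq2 called 2 lower, Atp5l and Atp5j2, beside 1.16% of the genes it tested. For Atp5l, the longest transcript has 6310 nt and the principal one 544 nt. Since the mean annotated length weighted by reads was higher in every KOb/c library than in every WT library, a difference of genotype and a difference of libraries that grows with transcript length cannot be told apart in these data.

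**Figure D2:**
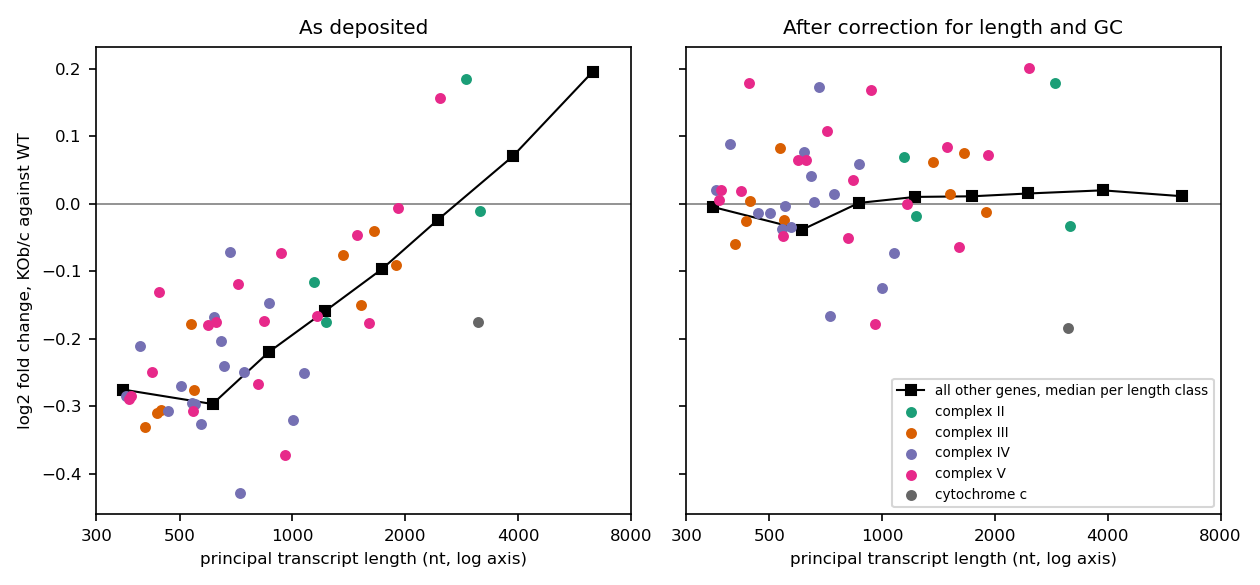
The log2 fold change of KOb/c against WT (y axis) is plotted against principal transcript length in nt (log x axis), for the 47 genes (points, coloured by complex) and for all other genes (squares, the median of each length class, drawn at the middle of the class, with the open class above 5000 nt drawn right of that bound). On the left, the medians of the other genes run from 0.20 in the longest class to -0.30 between 500 and 750 nt, and the members under 2000 nt lie below 0. On the right, after correction for length and GC content, the members lie around a median of 0.014.

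The promoters of the 47 genes were read for motifs of factors known to act on respiratory genes, since nearly all of these genes lay on the same side. Of the 47, 36 have a window in the RefSeq promoter table (GRCm38.p6), which spans 250 bases before and 50 bases after the start. The motif of NRF-1 (GCGCANGCG, or CGCNTGCGC on the other strand) was found in 13 of the 36 (36.1%), beside 7.03% of 27025 genes. The motif of ETS factors such as GABP (CCGGAAG or CTTCCGG) was found in 12 of the 36 (33.3%), beside 9.93%. The motif of YY1 (AAGATGGCG or CGCCATCTT) was found in 2, beside 1.64%. The 27025 genes are all those with a window, whether or not they are in the heart data. They were not matched to the members for expression. The ETS and YY1 motifs can overlap in the letters AAG, and a match describes letters and not a bound site. Members with an NRF-1 match had a median log2 fold change of -0.17 and those without one -0.24, and for the ETS motif these medians were -0.27 and -0.18. These medians are of values before any correction for length, and members with and without a match were not matched for length. After the correction by principal length, members with an ETS match ranged from -0.050 (Atp5j) to 0.078 (Cox6b1). Those without one ranged from -0.18 (Cycs) to 0.18 (Sdha). Whether the medians go with motif or length was not tested. To show these letters in their context, the following lines give stretches free of annotated exons before the RefSeq start, with matches in capitals. In each complex, the gene with the lowest limma p was taken among those with a single window and at least 150 such bases. The stretches come from chr4:140961021-140961202 on the plus strand and chr4:116075072-116075268, chr17:83514334-83514583 and chr9:44920752-44920992 on the minus strand, each read 5′ to 3′ towards its RefSeq start.
Sdhb: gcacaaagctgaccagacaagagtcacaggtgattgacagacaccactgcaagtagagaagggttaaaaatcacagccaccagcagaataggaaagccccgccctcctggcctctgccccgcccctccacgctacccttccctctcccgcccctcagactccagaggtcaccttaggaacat
Uqcrh: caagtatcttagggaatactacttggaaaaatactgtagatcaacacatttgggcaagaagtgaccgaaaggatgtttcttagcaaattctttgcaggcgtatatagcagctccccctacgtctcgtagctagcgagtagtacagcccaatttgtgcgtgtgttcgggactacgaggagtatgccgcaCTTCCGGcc
Cox7a2l: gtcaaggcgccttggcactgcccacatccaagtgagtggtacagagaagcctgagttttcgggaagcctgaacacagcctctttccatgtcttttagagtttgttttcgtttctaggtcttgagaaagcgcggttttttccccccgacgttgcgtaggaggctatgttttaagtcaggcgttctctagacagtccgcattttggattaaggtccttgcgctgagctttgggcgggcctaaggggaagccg
Atp5l: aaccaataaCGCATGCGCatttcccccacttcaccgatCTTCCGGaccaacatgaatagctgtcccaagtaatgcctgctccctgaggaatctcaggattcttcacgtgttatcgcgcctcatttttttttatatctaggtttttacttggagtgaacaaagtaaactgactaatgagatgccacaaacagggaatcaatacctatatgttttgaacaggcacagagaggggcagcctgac
The Sdhb and Cox7a2l stretches hold none of the 3 motifs, although the window of Sdhb has an ETS match outside the stretch printed and is counted among the 12. The Cox7a2l stretch lies inside the annotated span of its gene (chr17:83501918-83517330), whose start differs from the RefSeq start. The ETS match of Uqcrh begins 10 bases before its start. In Atp5l, an NRF-1 match begins 241 bases and an ETS match 212 bases before the start.

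Levels within the pathway differed far more between genes than between genotypes. Per kb of principal transcript, WT hearts held most RNA of Atp5b, the catalytic beta subunit of the F1 head (141977 normalized counts per kb), followed by Cox4i1 (104613 per kb) and Atp5a1 (85136 per kb). The lowest were Cox6b2 (115 per kb), the testis form of subunit 6b, Cox4i2 (539 per kb), the lung form of subunit 4, and Atp5s (637 per kb), a factor related to the ATP synthase. Together the 47 genes took 3.42% to 3.67% of the reads in KOb/c libraries and 3.83% to 4.09% in WT libraries, without overlap. For complex V these shares were 1.87% to 1.98% against 2.04% to 2.16%, for complex IV 0.584% to 0.674% against 0.739% to 0.804%, and for complex III 0.517% to 0.558% against 0.605% to 0.657%. For complex II the shares overlapped, at 0.345% to 0.380% against 0.364% to 0.380%.

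**Figure D3:**
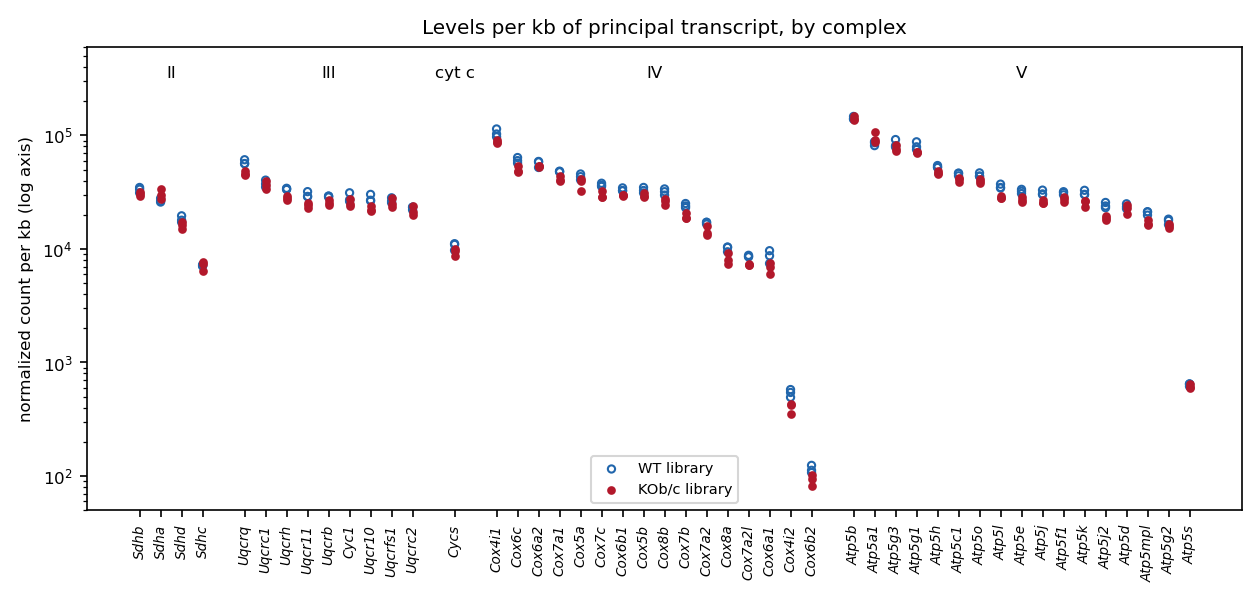
Normalized counts per kb of principal transcript (log y axis) are plotted for each of the 47 genes in the 6 heart libraries, grouped by complex and ordered by WT level (x axis). Genes span from 115 per kb for Cox6b2 to 141977 per kb for Atp5b in WT, and KOb/c (filled) and WT points (open) of a gene lie close together on this scale.

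Complex II had the longest transcripts of the 4 complexes (median 2066 nt) and the median nearest to 0, at -0.063 over its 4 genes. Sdha, the flavoprotein that takes electrons from succinate, stood at 97979, 80139 and 87408 normalized counts in KOb/c and at 76926, 80944 and 74998 in WT replicates 1 to 3. KOb/c replicates 1 and 3 were above all WT libraries and replicate 2 was within their range, and the log2 fold change was 0.19 ± 0.10 (SE, limma adjusted p = 0.287). With 1 library left out it ranged from 0.11, without KOb/c replicate 1, to 0.25, without KOb/c replicate 2. Sdhb, the iron-sulfur subunit that carries the electrons onward, was at 36298, 33609 and 34934 in KOb/c and at 39705, 38308 and 35651 in WT libraries. KOb/c replicate 1 was above WT replicate 3 and below the other WT libraries, with a log2 fold change of -0.12 ± 0.074 (SE, limma adjusted p = 0.38). Sdhc, a membrane anchor with the ubiquinone site, was at 24248, 20122 and 23242 in KOb/c and at 23017, 22486 and 22425 in WT libraries, with KOb/c libraries on both sides of the WT values (-0.011 ± 0.081 on the log2 scale, limma adjusted p = 0.952). Its partner Sdhd was at 21299, 18327 and 20062 in KOb/c and at 24088, 21211 and 22039.7 in WT libraries. KOb/c replicate 1 lay just above the lowest WT library and the other two lay below all of them (-0.17 ± 0.081, limma adjusted p = 0.234).

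In complex III, all 9 genes had a lower mean in KOb/c hearts, and the 5 small supernumerary subunits and the 4 core and catalytic ones had medians of -0.31 and -0.083. The first class has a median principal length of 445 nt and the second of 1586 nt, and after the correction for principal length their medians were -0.024 and 0.038. Uqcrq, a subunit that binds next to cytochrome b (ENSMUSG00000044894, chr11:53427922-53430831), was at 18500.3, 17969.7 and 19468 normalized counts in KOb/c and at 24708, 22873 and 22798 in WT libraries. Every KOb/c library was below every WT library, at 79.5% of the WT mean, with a log2 fold change of -0.33 ± 0.068 (SE, n = 3 per group, limma adjusted p = 0.0815). Uqcrh, the hinge protein that helps cytochrome c1 meet cytochrome c, stood at 14691, 15228 and 15876 in KOb/c and at 18703, 18267 and 18446 in WT libraries (-0.28 ± 0.061, limma adjusted p = 0.0815). Uqcr11 was at 10159, 10869.9 and 11319 in KOb/c and at 14224, 12897 and 12862 in WT libraries (-0.31 ± 0.071, limma adjusted p = 0.0817). The groups did not overlap in either gene. Uqcr10, which with Uqcr11 is among the smallest subunits, was at 9636, 9288 and 10299 in KOb/c and at 13115, 11641 and 11507 in WT libraries (-0.31 ± 0.074, limma adjusted p = 0.0836), again without overlap. Uqcrb was lower in all KOb/c libraries too (-0.18). After the correction for principal length, Uqcrq, Uqcrh, Uqcr11, Uqcr10 and Uqcrb were at -0.060, -0.024, 0.0037, -0.026 and 0.082 on the log2 scale.

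Cytochrome c1 and the mobile carrier cytochrome c had overlapping groups. Cyc1, cytochrome c1, was at 41464, 36137 and 38053 normalized counts in KOb/c and at 47441, 41064 and 39987 in WT libraries. KOb/c replicate 1 lay within the WT range and the other two lay below it (-0.15 ± 0.092, limma adjusted p = 0.36). Cycs, the soluble cytochrome c that shuttles electrons between complexes III and IV, was at 30962, 27147 and 29809 in KOb/c and at 34728, 30365 and 34201 in WT libraries. Here too KOb/c replicate 1 was above the lowest WT library, with a log2 fold change of -0.18 ± 0.084 (limma adjusted p = 0.245). With a principal transcript of 3123 nt, Cycs is among the longest members, and it stayed at -0.18 after the correction. The Rieske protein gene Uqcrfs1 (-0.076) and the core protein genes Uqcrc1 (-0.040) and Uqcrc2 (-0.090) had overlapping groups, and 19.7% of the exon bases of Uqcrc2 are shared with Pdzd9 on the other strand.

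Complex IV had the lowest median of the 4 complexes, with all 16 nuclear genes lower and a median of -0.26. All 16 encode supernumerary subunits or factors around the catalytic core, which is encoded in mitochondrial DNA. In 13 of the 16, the groups did not overlap, beside 14.6% of all genes, and DESeq2 called 11 of the 16 lower, beside 5.03%. Over the complex the median became -0.00054 after the correction by principal length. Cox7a2l (ENSMUSG00000024248, chr17:83501918-83517330) was at 7788, 7851 and 7765 normalized counts in KOb/c and at 9199, 9199.6 and 9456 in WT libraries. No KOb/c library reached a WT library, and the KOb/c mean was 84.0% of WT (-0.25 ± 0.054, limma adjusted p = 0.0815). Cox7b stood at 18755, 18553 and 20572 in KOb/c and at 25138, 23118 and 23943 in WT libraries (-0.32 ± 0.071, limma adjusted p = 0.0815). For Cox7c, the values were 15541, 15410.1 and 17456 in KOb/c and 20459, 19167 and 19668 in WT libraries (-0.29 ± 0.072, limma adjusted p = 0.0844). Both genes encode small membrane subunits, and in both all KOb/c libraries were below all WT libraries. After the correction, Cox7a2l, Cox7b and Cox7c were at -0.073, -0.12 and -0.037. Of the remaining subunits, Cox6c (-0.27) and Cox5b (-0.15) were lower without overlap, and Cox5a (-0.20) was lower with overlap.

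Several complex IV subunits exist as a heart and muscle form and a general form, and both forms of each pair were lower before any correction for length. Cox8b, the heart form of subunit 8, was at 8788, 9549.8 and 9852 normalized counts in KOb/c and at 12151, 11491 and 10719 in WT libraries (-0.29 ± 0.073, limma adjusted p = 0.0869). Its general counterpart Cox8a was at 4032, 4429.6 and 5094 in KOb/c and at 5675, 5718 and 5191 in WT libraries (-0.30 ± 0.091, limma adjusted p = 0.111). In both, the groups did not overlap. Cox7a1, the heart form of subunit 7a, stood at 15608, 16006 and 17395 in KOb/c and at 18799, 19015 and 18862 in WT libraries (-0.21 ± 0.065, limma adjusted p = 0.113). The general form Cox7a2 was at 8829, 9137 and 10478 in KOb/c and at 11290.2, 10916 and 11318 in WT libraries (-0.24 ± 0.075, limma adjusted p = 0.115). KOb/c libraries were below WT libraries for both, with KOb/c replicate 3 nearest to WT. For Cox6a2, the heart form of subunit 6a, the values were 36874, 35682 and 36902 in KOb/c and 40073, 39688 and 35461 in WT libraries, and WT replicate 3 was below all KOb/c libraries (-0.072 ± 0.075, limma adjusted p = 0.61). Cox6a1 was at 3459, 3986 and 4280.0 in KOb/c and at 4972, 5509 and 4251 in WT libraries, where WT replicate 3 again lay among the KOb/c values (-0.33 ± 0.11, limma adjusted p = 0.128). After the correction by principal length, Cox8b was at 0.021 and Cox8a at -0.0035, Cox7a1 at 0.088 and Cox7a2 at 0.0024, and Cox6a2 at 0.17 and Cox6a1 at -0.034.

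Subunits 4 and 6b pair a general form with one known from lung or testis. Cox4i1 was at 67198, 63355 and 65724 normalized counts in KOb/c and at 84836, 76603 and 72371 in WT libraries (-0.25 ± 0.088, limma adjusted p = 0.14). The scarce Cox4i2 was at 254, 308 and 312 in KOb/c and at 420.0, 396 and 359 in WT libraries, with KOb/c replicate 1 lowest and no overlap. Its log2 fold change of -0.43 ± 0.12 was the lowest of the 47 genes before any correction (limma adjusted p = 0.0966), at 74.4% of WT. Cox6b1 stood at 18267, 18056 and 18516 in KOb/c and at 21306, 20193 and 20104 in WT libraries (-0.17 ± 0.061, limma adjusted p = 0.149). Cox6b2, the scarcest of the 47, was at 37.7, 43.4 and 47.9 in KOb/c and at 52.2, 49.9 and 57.7 in WT libraries (-0.31 ± 0.20, limma adjusted p = 0.391). The groups of Cox4i1, Cox6b1 and Cox6b2 did not overlap either. After the correction by principal length, Cox4i1 was at 0.014, Cox4i2 at -0.17, Cox6b1 at 0.078 and Cox6b2 at -0.014. Cycs and Atp5j2, both at -0.18, were then below Cox4i2.

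Ratios between the 2 forms within a library do not depend on the size factor of the library. The log2 ratio of Cox6a2 to Cox6a1 was 3.41, 3.16 and 3.11 in KOb/c and 3.01, 2.85 and 3.06 in WT replicates 1 to 3, higher in all KOb/c libraries. The difference of 0.25 had p = 0.1 in an exact two-sided permutation test, the smallest p that 3 against 3 libraries allow, and 0.2 after Benjamini-Hochberg adjustment over the 4 pairs tested. It was 0.16 without KOb/c replicate 1. For Cox4i1 over Cox4i2 the log2 ratio was 8.05, 7.68 and 7.72 in KOb/c and 7.66, 7.60 and 7.66 in WT libraries, with a difference of 0.18 (exact permutation p = 0.1, adjusted p = 0.2). Without KOb/c replicate 1 the difference was 0.064, and it was 0.066 after quantile normalization. Cox7a1 over Cox7a2 differed by 0.030 (exact permutation p = 0.4, adjusted p = 0.533) and Cox8b over Cox8a by 0.011 (exact permutation p = 0.8, adjusted p = 0.8), with overlapping groups. Per kb, WT hearts held 6.59 times as much Cox6a2 as Cox6a1, 2.84 times as much Cox7a1 as Cox7a2, 3.16 times as much Cox8b as Cox8a and 194 times as much Cox4i1 as Cox4i2.

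**Figure D4:**
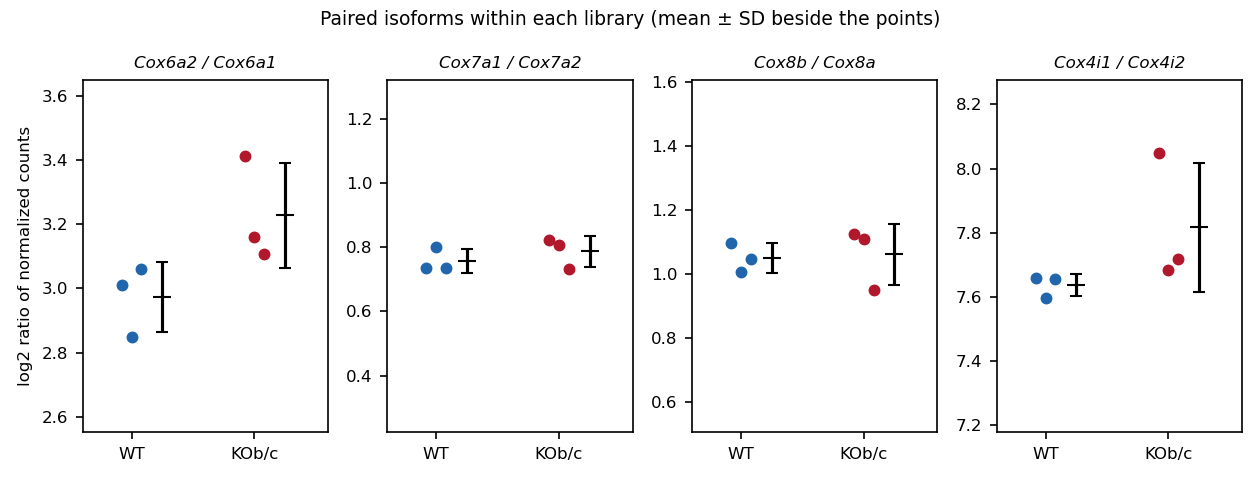
For the 4 isoform pairs, the log2 ratio of normalized counts (y axis) is shown in each library of WT and KOb/c hearts (x axis), with the mean ± SD of 3 libraries beside the points. All panels span the same height on the log2 scale. KOb/c points lie above WT points for Cox6a2 over Cox6a1 and for Cox4i1 over Cox4i2, and overlap with them in the other two.

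In complex V, 16 of 17 genes were lower, with a median of -0.17, and its parts had the following medians, each given with its median transcript length. The 4 accessory subunits of the membrane part had a median of -0.30 and a median length of 458 nt. The 4 peripheral stalk genes were at -0.18 and 824 nt, the 3 c subunit genes at -0.13 and 596 nt, and the 5 genes of the F1 head and central stalk at -0.072 and 1166 nt. Atp5j2, the f subunit (ENSMUSG00000038690, chr5:145183698-145192062), stood at 17122, 17890.1 and 18529 normalized counts in KOb/c and at 24498, 22034 and 22802 in WT libraries. Its KOb/c mean was 77.2% of WT without overlap (-0.37 ± 0.069, SE, n = 3 per group, limma adjusted p = 0.0815). The value was -0.29 after the correction by longest and -0.18 by principal transcript length, with adjusted p = 0.243 and 0.315 in limma. Atp5l, the g subunit, was at 15403, 15383 and 15979 in KOb/c and at 20239.5, 18906 and 18711 in WT libraries (-0.31 ± 0.063, limma adjusted p = 0.0815). For Atp5mpl, a small proteolipid of the membrane part, the values were 6004, 6068 and 6584 in KOb/c and 7732, 7263 and 7791 in WT libraries (-0.29 ± 0.064, limma adjusted p = 0.0815). Atp5k, the e subunit that helps pair ATP synthases into dimers, was at 8764, 9770.0 and 9850.3 in KOb/c and at 12176, 11221 and 11147 in WT libraries (-0.28 ± 0.071, limma adjusted p = 0.085). No KOb/c library reached a WT library in any of these, and after the correction by principal length Atp5l, Atp5mpl and Atp5k were at -0.047, 0.0051 and 0.021. Usmg5, which encodes another small subunit of the ATP synthase and stood outside the symbols used, was at -0.35, and at -0.063 after the correction by principal length.

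The c subunit of the rotor ring is the product of 3 genes that yield the same mature protein. Atp5g1 was at 42572, 42094 and 42505 normalized counts in KOb/c and at 52310.2, 47246 and 44710.5 in WT libraries, without overlap (-0.18 ± 0.080, limma adjusted p = 0.219). Atp5g2 was at 6972, 6796 and 7346 in KOb/c and at 7850.2, 8064 and 7219 in WT libraries (-0.13 ± 0.066, limma adjusted p = 0.271), and Atp5g3 at 58851, 52482 and 54054 in KOb/c and at 65603, 57809 and 56425 in WT libraries (-0.12 ± 0.090, limma adjusted p = 0.459), both with overlap at KOb/c replicate 3 or 1. Without WT replicate 1, Atp5g1 was at -0.12 and Atp5g3 at -0.053, and Cyc1 and Cox6a2 of complexes III and IV were at -0.074 and -0.040. Per kb, Atp5g1 made up 42.1% to 44.3% of the 3 genes in KOb/c and 44.0% to 44.5% in WT hearts, Atp5g2 9.32% to 10.2% and 9.02% to 10.2%, and Atp5g3 46.1% to 48.6% and 45.4% to 46.5%.

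Of the F1 head, Atp5b was at -0.0057 and Atp5a1, the alpha subunit, at 0.16 (0.068 without KOb/c replicate 1), and both overlapped between genotypes. The central stalk genes Atp5c1 (-0.17) and Atp5e (-0.25) were lower without overlap and Atp5d (-0.072) with overlap. The peripheral stalk genes Atp5j (-0.27), Atp5f1 (-0.18), Atp5h (-0.17) and Atp5o (-0.17) were each lower in all KOb/c libraries, while Atp5s was at -0.046 with overlap. Exon bases of Atp5j are shared with Gabpa (12.7%) and those of Atp5o with 2 antisense genes (17.5% and 18.1%) on the other strand, so reads there may not be told apart.

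The libraries did not shift evenly. KOb/c replicate 2 held the lowest value for 26 of the 47 genes and KOb/c replicate 1 for 16, while WT replicate 1 held the highest for 32. For genes with a principal transcript under 1000 nt, KOb/c replicate 1 was farthest below the gene means, with a median deviation of -0.18, beside -0.14 and -0.045 in replicates 2 and 3. For longer genes of the list it was above the means, at 0.040, while KOb/c replicate 2 was at -0.15. After the correction by longest transcript length, the medians over the 47 genes were 0.052, -0.081 and -0.053 in KOb/c and 0.086, 0.012 and -0.029 in WT replicates 1 to 3, so that the libraries of the 2 genotypes were interleaved.

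Genes that work beside the complexes were read from lists. Of 44 factors listed for the assembly of complexes II to V, 41 were in the table, and 31 of these were lower and 10 higher. In limma, 12 were lower and 3 higher at an unadjusted p under 0.05, beside 10.5% and 13% of all genes, and none passed the adjusted threshold. DESeq2 called 9 lower, beside 5.03% of all genes. The lowest p was that of Cox14, which guides newly made complex IV core protein, at 3842, 3978 and 4141 normalized counts in KOb/c and 5160.0, 4984 and 4738 in WT libraries (-0.32 ± 0.062, limma adjusted p = 0.0815). It stood at -0.063 after the correction by principal length, and the median of the 41 factors went from -0.10 to 0.030.

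Regulators of mitochondrial genes stood on both sides of 0. Of 25 genes for factors of mitochondrial transcription, replication and upkeep, 10 were lower and 15 higher, with a median of 0.031. At an unadjusted p under 0.05 in limma, 2 were lower and 5 higher, beside 10.5% and 13% of all genes, and none passed the adjusted threshold. DESeq2 called 1 lower, Clpp, and 2 higher, the nuclear receptor genes Esrrg and Ppara (adjusted p = 0.0458, 0.0149 and 0.033), beside 5.03% and 8.22% of all genes. With length and GC correction, DESeq2 called 0 of the 25, with Esrrg at an adjusted p of 0.105 and Ppara at 0.0884. The groups of Ppara overlapped, and its log2 fold change in limma was 0.47, or 0.26 without KOb/c replicate 1. The lowest p was that of Clpp, a mitochondrial protease, at 1975, 2007 and 1995 in KOb/c and 2374, 2477 and 2184 in WT libraries (-0.23 ± 0.067, limma adjusted p = 0.101), and it stood at -0.0032 after the correction by principal length. Ppargc1a, the coactivator PGC-1 alpha, was at 4613, 3358 and 3128 normalized counts in KOb/c and at 3047, 2931 and 2816 in WT libraries, higher in all KOb/c libraries (0.32 ± 0.13, limma adjusted p = 0.192). Its log2 fold change was 0.15 without KOb/c replicate 1 and 0.14 after the correction by principal length. Gabpa, an ETS factor subunit, was at 2866, 2804 and 2751 in KOb/c and at 2421, 2457 and 2704 in WT libraries, also without overlap (0.15 ± 0.066, limma adjusted p = 0.206), and shares exon bases with Atp5j. Nrf1 (-0.0027, limma adjusted p = 0.988), Esrra (-0.11, limma adjusted p = 0.469) and Tfam (-0.067, limma adjusted p = 0.664), which encode NRF-1, the receptor ERR alpha and the packing protein of mitochondrial DNA, had overlapping groups. Tfam was at -0.15 without KOb/c replicate 2.

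Of 18 citric acid cycle genes, 9 were lower and 9 higher, with a median of 0.021, or 0.10 after the correction by principal length. At an unadjusted p under 0.05 in limma, 0 were lower and 2 higher, beside 10.5% and 13% of all genes. The lowest p was that of Ogdh, a subunit of the 2-oxoglutarate dehydrogenase complex, at 107125, 93061 and 87819 normalized counts in KOb/c and 72179.9, 79370.1 and 69562 in WT libraries (0.38 ± 0.10, limma adjusted p = 0.0935). Ogdh was the 1 gene of the list that DESeq2 called (adjusted p = 0.00247), beside 8.22% of all genes called higher. The 11 genes for the export of ATP and its buffering by creatine had a median of -0.0062, or 0.093 after the correction by principal length, with 6 lower and 5 higher before it. In limma 1 was lower at an unadjusted p under 0.05, beside 10.5% of all genes. DESeq2 called 0, beside 5.03% of all genes called lower and 8.22% called higher. Of the 13 protein genes of mitochondrial DNA, 12 were higher and 1 lower, with a median of 0.15, 2 were higher at an unadjusted p under 0.05, beside 13% of all genes, and none passed the adjusted threshold in limma, while DESeq2 called 3 higher, beside 8.22% of all genes. After the correction by principal length their median was 0.35 with 13 of 13 higher. The lowest p was that of mt-Nd4l, at 1714, 1272 and 989 in KOb/c and 835, 973 and 789 in WT libraries (0.58 ± 0.18, limma adjusted p = 0.112), with 0.38 without KOb/c replicate 1 and 0.87 after the correction by principal length. These genes have near-identical copies in the nuclear genome, and how shared reads were counted is not given in the sources used here, so their values are uncertain. They took 18.3% to 20.8% of the reads in KOb/c and 18.01% to 19.6% in WT libraries.

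Other groups of mitochondrial and ribosomal genes are given for scale. Of 38 nuclear complex I genes, 35 were lower, with a median of -0.21, and 0.012 after the correction by principal length. Of 78 mitochondrial ribosomal protein genes, 75 were lower, with medians of -0.17 and -0.035. All 80 cytosolic ribosomal protein genes were lower, with medians of -0.35 and -0.11. No difference between the groups was tested.

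Markers of cell types were read beside these results, and their part in them was not tested. Of 12 cardiomyocyte genes, 5 were lower and 7 higher, with a summed level of 3847840.0 to 4395160.0 normalized counts in KOb/c and 3335640.0 to 3477910.0 in WT libraries, without overlap, but per kb these sums overlapped (1805440.0 to 2004450.0 and 1817340.0 to 1910020.0). The summed levels of 8 endothelial genes overlapped (63632 to 69852 and 66778 to 69509), while per kb they did not (32990.5 to 39130.4 and 40558 to 43146). Those of 8 fibroblast genes (87844 to 104628 and 90375 to 97879.6) overlapped. Of 8 macrophage genes 5 were lower, at 9017 to 10311 and 10335 to 11067, without overlap on either scale. White fat genes (6 of 7 in the table, all 6 lower) summed to 119 to 2867 and 1239 to 3397, with KOb/c replicate 1 the lowest library. Brown fat genes, of which Cox7a1 and Cox8b are 2 of 8, summed to 30119.9 to 35612 and 34876 to 37452, or per kb, where the groups did not overlap, to 65722 to 75724 and 79938 to 83607. Ucp1, which defines brown fat, ranged from 17.9 in KOb/c replicate 1 to 2948 in KOb/c replicate 3. Atrial genes (6, 5 of them lower) summed to 18459.6 to 91902 and 26645 to 114786, erythroid genes (7, 6 lower) to 29485 to 133694 and 52383 to 117151, lymphocyte genes (9 of 10, 7 lower) to 638 to 984 and 619 to 1328, and skeletal muscle genes (9 of 12, 6 lower) to 103077 to 121236 and 105440.0 to 114622. The summed ranges of the fat, atrial, erythroid, lymphocyte and skeletal muscle lists overlapped between the genotypes. The 4 nuclear-retained RNAs Malat1, Neat1, Kcnq1ot1 and Meg3 were all lower, at 45672 to 55865 and 51825 to 61876, with overlap. No marker in the table was at 0 in any library.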

How the data were processed

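RNAseq of hearts from 3 KOb/c and 3 WT mice was analysed from the deposited table. The deposited values are a signal: per gene, the authors divided its read count by a size factor of the library. The submitters' processing notes name Trimmomatic 0.36, STAR 2.5.2b, featureCounts of Subread 1.5.2, DESeq2 and the GRCm38 build. The annotation, the use of strand and the handling of shared reads are not given in the sources used here. Whole reads were recovered by dividing by the value of 1 read, with 100% of values within 0.01 of a whole number. Depth was 41364857 to 49100802 reads on genes.

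Symbols, positions and lengths came from GENCODE M21, which matched 15980 identifiers. The principal transcript is the shortest best-supported protein-coding one marked principal. KOb/c was set against WT by limma 3.58.1 in R 4.3.3, after adding 1 and taking log2. The fit used a variance trend and the 16016 genes whose mean reached 10. Tests were two-sided, p-values were adjusted by Benjamini-Hochberg, and 0.05 was the threshold. edgeR 4.0.16 and DESeq2 1.42.0 were run on the recovered reads. Corrections subtracted splines of 5 degrees of freedom in log2 length and GC content per library. Isoform ratios were compared with exact permutation tests. Given with the values of every library were Slc4a4, complex II, Cyc1, Cycs, isoform and c subunit genes, and the 4 lowest p per complex. Of other pathway lists, the lowest p and Ppargc1a, Nrf1, Gabpa, Esrra and Tfam were named. One gene that this rule names is not reported here. Usmg5, Esrrg, Ppara and the corrections by principal transcript and with DESeq2 were added after values were seen. The procedures were tested on simulated data with 200 genes changed. Without a length trend, limma, edgeR and DESeq2 made 9, 10 and 19 false calls. With a length trend added they made 356, 315 and 443, and limma with length and GC correction made 11. That trend was simulated in the longest transcript length, which this correction uses, and was the same in all simulated KOb/c libraries. The 11 calls therefore do not show how well the correction works on these data. The correction by principal transcript was not simulated. The members, lists and tests were chosen with earlier results of these data known.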

Additional observations from a re-analysis of the deposited data

How the results depend on the processing

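In limma, 0 of the 47 genes passed the adjusted threshold under each alternative of scaling, filter, pseudocount, variance trend, weights, block, correction or library left out. Their lowest adjusted p in limma ranged from 0.070 with quantile normalization to 0.315 with the correction by principal transcript, beside 0.0815. DESeq2 called 21 of the 47 and 1587 genes in all, and 2 and 343 with length and GC correction. Without KOb/c replicate 2, limma called 3 genes in all, none of them among the 47. The median of the 47 genes, -0.18, was -0.25 when libraries were rescaled to the same total (-0.077 over all genes), -0.23 after quantile normalization, -0.057 with length and GC correction (with or without the replicate block), -0.056 with the same correction in DESeq2 and 0.014 with the correction by principal transcript. With each library left out it ranged from -0.21 to -0.16. The 29 genes without overlap between genotypes became 12 and 4 with the 2 corrections.

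Replicate numbers 1 to 3 recur in both genotypes, but the mice differ, and the deviations of same-numbered libraries correlated at r = 0.23, 0.072 and -0.029, so the numbers were not taken to pair them. With the replicate block, 0 genes were called in limma, and the lowest adjusted p among the 47 was 0.105.

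No value was called in limma, so the following turned sign without losing a call. With length and GC correction, with and without the replicate block, these became higher on the log2 scale: Sdhb 0.046, Sdhc 0.0044, Uqcrb 0.026, Uqcrc2 0.021, Uqcrfs1 0.058, Uqcrc1 0.030, Cox6b1 0.012, Cox5b 0.020, Cox6a2 0.12, Atp5g2 0.073, Atp5g3 0.048, Atp5d 0.10, Atp5s 0.10 and Atp5b 0.10. In DESeq2 with this correction they were Sdhb 0.049, Sdhc 0.0099, Uqcrb 0.024, Uqcrc2 0.028, Uqcrfs1 0.064, Uqcrc1 0.036, Cox6b1 0.013, Cox5b 0.018, Cox6a2 0.12, Atp5g2 0.073, Atp5g3 0.049, Atp5d 0.10, Atp5s 0.10 and Atp5b 0.10. By principal transcript, the higher genes were Sdhb 0.069, Uqcr11 0.0037, Uqcrb 0.082, Cyc1 0.015, Uqcrfs1 0.062, Uqcrc1 0.076, Cox8b 0.021, Cox7a1 0.088, Cox7a2 0.0024, Cox4i1 0.014, Cox6b1 0.078, Cox5b 0.060, Cox5a 0.042, Cox6a2 0.17, Atp5mpl 0.0051, Atp5k 0.021, Atp5e 0.018, Atp5h 0.066, Atp5o 0.036, Atp5c1 0.00017, Atp5g1 0.066, Atp5g2 0.18, Atp5g3 0.11, Atp5d 0.17, Atp5s 0.085 and Atp5b 0.072. These corrections remove the trends with length and with GC content together, and which of the 2 turned a sign was not tested. After quantile normalization, Atp5b was at 0.032. Without KOb/c replicate 2, Sdhc 0.068, Uqcrc1 0.022 and Atp5b 0.026 turned higher, and the same 3 genes did so without WT replicate 1. With each library left out, Sdhc ranged from -0.066 to 0.068, Uqcrc1 from -0.10 to 0.022 and Atp5b from -0.042 to 0.026. The log2 ratio of Cox8b to Cox8a, 0.011, was -0.0067 with length and GC correction and ranged from -0.020 to 0.066 with 1 library left out, and 3 of these 6 were below 0. For 19 of the 47 genes, the direction was the same under every alternative run.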
